A study of Schizosaccharomyces pombe with 12 samples.

Results

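The subtelomeric features of chromosomes I and II of the fission yeast Schizosaccharomyces pombe are the annotated genes that lie within 100 kb of the 4 ends of these chromosomes. They were taken from the deposited annotation of the study's modified genome by position alone: a feature belonged to a left end when it ended at or before base 100000, and to a right end when it started no more than 100000 bases before the highest feature end of its chromosome. This gave 189 features, of 5681 on chromosomes I and II and 7002 in the whole annotation. The left and right ends of I held 53 and 47, and the left and right ends of II held 46 and 43. The other 5492 features of I and II are called the rest.

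The annotation accompanies 12 ChIP-exo libraries, in which exonuclease trimming sharpens the position of chromatin-bound material, in 6 groups of 2. RNA-DNA hybrids were precipitated with antibody S9.6 from Rnh1del-Rnh201del cells, which lack both RNase H enzymes, with I-PpoI induction ON or OFF. Ssb2 carrying a Flag tag, part of the RPA complex that coats single-stranded DNA, was precipitated with induction ON from Rnh1del-Rnh201del cells, from pNmt1::Rnh1 cells, which overexpress Rnh1 from the nmt1 promoter, and from WT cells, and with induction OFF from WT cells. Every strain carried the DSB-PpoI system, an inducible endonuclease and its cut site, and all were grown in YEA medium at 30°C. The files used here hold positions and names but no measured value of any library, so library depth is unknown and no difference between groups was tested: all that follows describes the annotation on which such signals are read.

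Subtelomeres lie between the telomere repeats, which are bound by the Taz1 and shelterin proteins, and the gene-rich chromosome arms. In fission yeast they carry heterochromatin made by the methyltransferase Clr4 and bound by Swi6, and they hold the telomere-linked helicase genes tlh. They are known for genes of nutrient uptake and stress, for low expression in rich medium and for sequence exchanged among chromosome ends.

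Many genes of these regions occur at more than 1 end, and 3 sets of sequences show how alike the copies were. L-asparaginase, which cleaves asparagine into aspartate and ammonia, is encoded at 3 of the 4 ends by 4 genes in 2 pairs. Their first 60 coding bases follow, read 5′ to 3′ on the coding strand from the RefSeq ASM294v3 sequence, and capitals mark bases that differ from the first line. They lie at chrI:5535198-5535257 (plus strand), chrII:76318-76377 (plus), chrI:56492-56551 (plus) and chrII:55508-55567 (minus) in that build, in the order shown.
SPAC186.03: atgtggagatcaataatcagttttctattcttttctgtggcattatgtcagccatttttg
SPBPB21E7.09: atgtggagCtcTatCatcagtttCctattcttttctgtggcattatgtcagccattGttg
SPAC977.12: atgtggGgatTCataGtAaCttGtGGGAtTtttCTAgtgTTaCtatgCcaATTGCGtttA
SPBPB8B6.05c: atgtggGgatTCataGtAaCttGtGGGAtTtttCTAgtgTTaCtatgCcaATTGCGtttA
The last 2 lines are equal to each other and differ from the first at 26 of the 60 bases, while the second line differs from the first at 5. Over whole proteins the first pair, on the right end of I and the left end of II, was 98.6% identical, and the second pair, on the left ends of I and II, was 99.7% identical. Between the pairs identity was 69.4% to 70.2%.

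A second set of sequences shows 1 stretch of DNA that is present on 3 ends and described in 3 ways. It is listed as a coding gene for a GPI-anchored cell surface protein on the left end of I (SPAC212.12), as a coding gene for an uncharacterized protein on the right end of I (SPAC750.07c) and as a pseudogene on the right end of II (SPBCPT2R1.06c). The 372 bases of the 2 coding genes were identical and occurred without a change inside the pseudogene. The first 60 of them lie at chrI:15855-15914 (plus strand), chrI:5575505-5575564 (minus) and chrII:4520332-4520391 (minus) in ASM294v3, and no capitals appear because no base differs.
SPAC212.12: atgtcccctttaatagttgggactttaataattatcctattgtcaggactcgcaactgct
SPAC750.07c: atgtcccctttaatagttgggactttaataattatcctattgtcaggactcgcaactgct
SPBCPT2R1.06c: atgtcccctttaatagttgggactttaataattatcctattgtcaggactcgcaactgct

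The third set shows how sharply shared sequence stopped. The longest block that 2 ends had in common at 95% identity or more joined the left ends of I and II over 14983 aligned positions, at 99.6% identity. At its inner limit the 2 ends read as follows on the plus strand, at chrI:49251-49310 and chrII:29463-29522 of ASM294v3, with capitals for bases on II that differ from I.
I left: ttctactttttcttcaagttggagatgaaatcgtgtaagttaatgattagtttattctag
II left: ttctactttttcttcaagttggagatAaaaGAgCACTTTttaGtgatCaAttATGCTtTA
The first 26 bases were equal, and 19 of the following bases differed.

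Of the 189 features, 179 were matched by name to RefSeq, and 123 of these were protein-coding genes with a coding sequence. A total of 47 of the 123 coded for a protein with a match at another end, taken as identity of at least 80% over at least 80% of the longer protein, a share of 38.2% (95% Wilson interval 30.1% to 47.0%). By end these were 15 of 32 on the left of I, 8 of 33 on the right of I, 14 of 31 on the left of II and 10 of 27 on the right of II. A match anywhere in the nuclear genome was found for 53 of the 123 (43.1%), against 149 of 4064 (3.67%) in the rest, of which 97 were ribosomal proteins and 11 belonged to retrotransposons. Sharing was concentrated near the edge: 41 of 63 coding genes (65.1%) in the outer 50 kb had a match at another end, and 6 of 60 (10%) in the inner 50 kb.

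**Figure D1:**
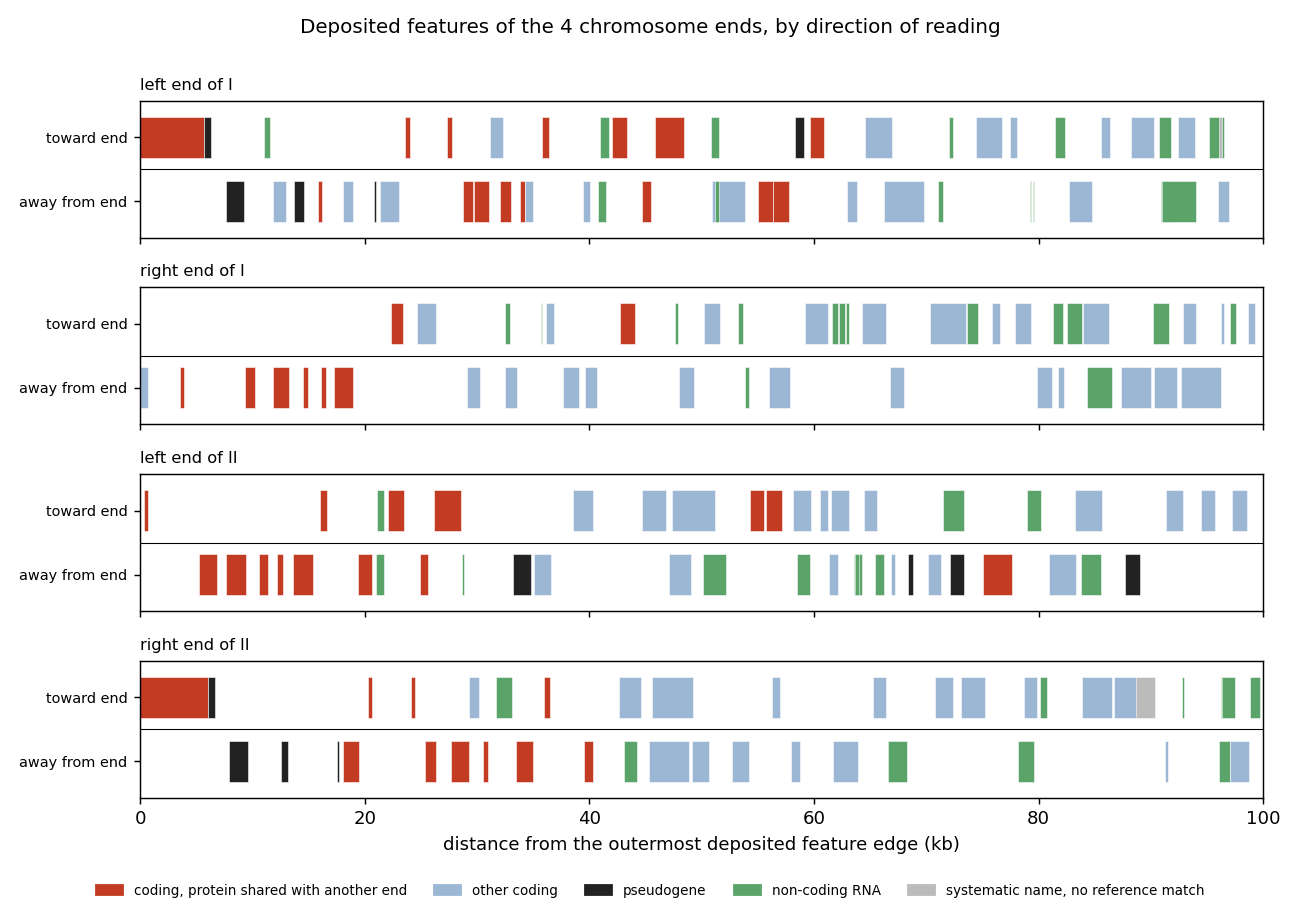
Deposited features of the 4 ends, drawn to scale by distance from the outermost feature edge in kb, with features read toward the chromosome end above the line and those read away from it below. Red marks coding genes whose protein has a match at another end (47 in all), and these lie mostly in the outer 50 kb.

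The matches formed 18 protein families on more than 1 end: 3 families on all 4 ends, 4 on 3 ends and 11 on 2 ends. The first family on all 4 ends had 5 members of unknown function, SPAC212.01c on the left of I, SPAC750.06c on the right of I, SPBC1348.01 on the left of II and both SPBCPT2R1.01c and SPBCPT2R1.04c on the right of II. Its proteins were 95.4% to 100% identical. The other families on all 4 ends carry transmembrane helices and are named ftm. In one, ftm1, ftm4, ftm5 and SPBPB2B2.19c were 99.7% to 100% identical, and in the other, ftm2, ftm3, ftm6 and ftm7 were 98.6% to 100% identical. The 441 coding bases of ftm2 and ftm3, on the left and right ends of I, had no difference, and ftm6 and ftm7, on the left and right ends of II, each differed from ftm2 at 1 base.

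The families on 3 ends were the membrane transporters SPAC750.02c, SPBC1348.05 and SPBPB2B2.16c (485 residues, at least 99.8% identical), the methyltransferases SPAC977.03, SPAC750.03c and SPBC1348.04 (145 residues, at least 98.6%), the Vel1p domain proteins SPAC977.05c, SPBC1348.06c and SPBPB2B2.15 (at least 98.5%), and the uncharacterized proteins SPAC212.03, SPBC1348.15 and SPBCPT2R1.03 (129 residues, at least 99.2%). Missing members differed from family to family, with no member of the transporter family on the left of I and no methyltransferase listed on the right of II. The left of I did list SPAC977.04, a coding gene of 630 bases in RefSeq. Its DNA was 99.8% identical to part of each transporter gene, but its protein did not meet the limits for the family.

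Pairs between the left ends of I and II covered enzymes and membrane proteins with known roles. They included the fluoride exporters fex1 and fex2, the phospholipases plb4 and SPBC1348.10c, the dehydrogenases ayr2 and SPBC1348.09 and the glycoproteins pfl6 and SPBC1348.08c, and in each of these pairs the proteins were 100% identical. The RecQ-type helicase genes tlh1 and tlh2 were the outermost features of the left end of I and the right end of II, with deposited lengths of 5662 and 6016 bases, and their proteins were identical over 98.3% of the longer one. The interval of tlh1 begins at base 1 of chromosome I, the limit of the sequence. The gene is read toward that base. Its coding sequence in RefSeq also reached base 1 and had 5662 bases, against 5760 for tlh2. In the DNA block shared with the right end of II, base 1 of I aligned 0.353 kb inside the II edge. Whether tlh1 is cut at base 1 was not tested. The aldo-keto reductases SPAC977.14c and SPAC750.01 on the left and right of I were the least alike of the matched families on 2 ends, at 94.5%. The 11 families with identical proteins at 2 ends outnumbered the 7 without.

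**Figure D2:**
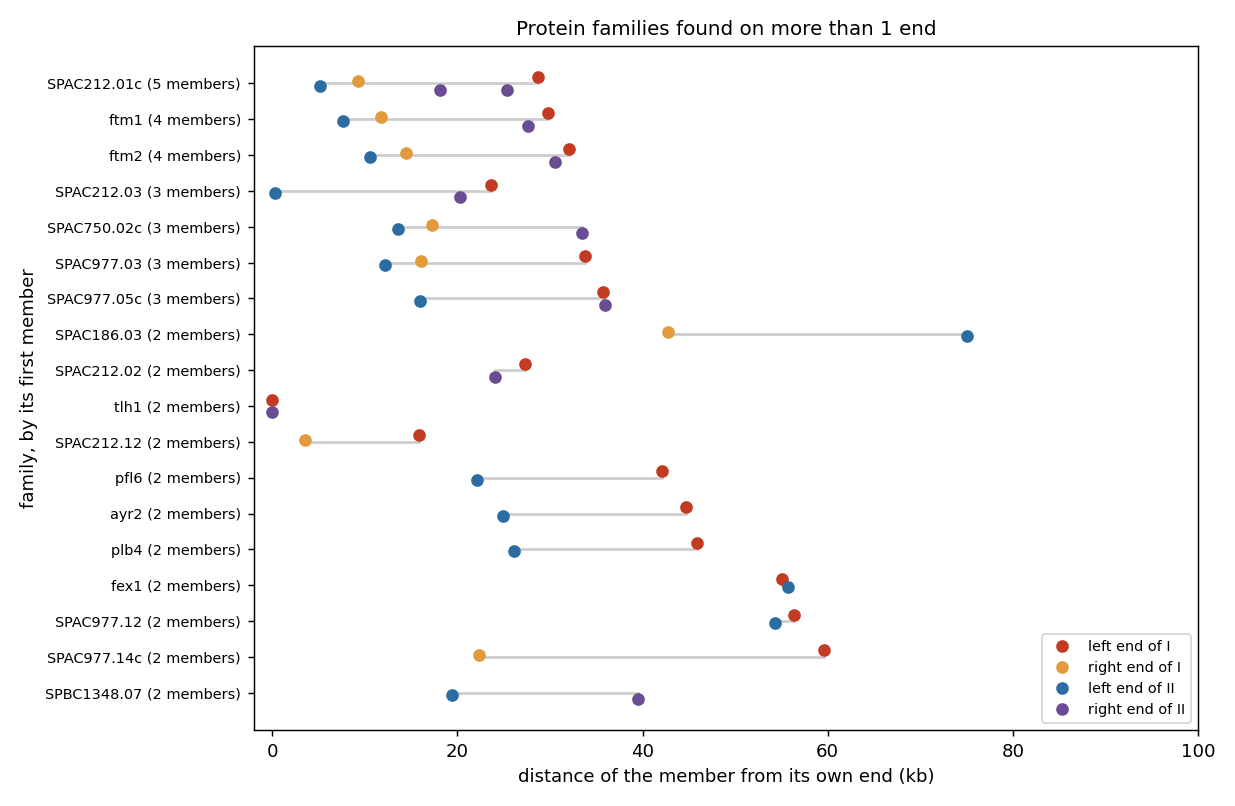
Protein families with members on more than 1 end, 1 row per family named by its first member. Each member is placed at its distance in kb from the edge of its own end. On the right of II that edge is the highest deposited feature end, 6905 bases short of the chromosome's length. Points are offset vertically so that both tlh genes at distance 0 can be seen. Members on the left end of I and the right end of II lie further in than those on the left end of II for most families.

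Most families kept their direction and spacing from end to end. In 15 of the 18 families all members were read the same way relative to the chromosome end. The exceptions were the fluoride exporters and both pairs of asparaginases. The distance from the edge was larger on the right end of II than on the left end of II by 19.9 to 20.1 kb in all 6 families with 1 member on each. The edge of the right end of II is its highest deposited feature end, 6905 bases short of the chromosome's length. On the left end of I it was larger than on the left end of II by a median of 19.9 kb over 11 families, with values of 19.7 to 23.5 kb in 9 of them and of 2.05 and -0.69 kb for the inverted pair of asparaginases and the fluoride exporters. On the right end of I it was larger than on the left end of II by 3.66 to 4.17 kb in 5 of 6 families, and the asparaginases differed by -32.4 kb.

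At the level of DNA, 26 blocks of at least 1 kb and 95% identity joined 2 ends. This count takes 1 stretch of the left of I and the right of II as 2 blocks. That stretch aligned over 7351 or 7354 positions, depending on the direction of comparison. The sequence shared with at least 1 other end came to 48.5 kb on the left of I, 21.0 kb on the right of I, 33.4 kb on the left of II and 40.4 kb on the right of II, and 7.09 to 8.43 kb of each end was shared with all 3 others. The outermost 10149 bases of the left end of II occurred without a single difference on the right end of II, 19.98 kb from its edge. Words of 50 bases that occur more than once in the nuclear genome made up 46.2% of the left end of I, 19.5% of the right end of I, 39.9% of the left end of II and 39.2% of the right end of II, against a median of 0.207% over the 96 internal windows of 100 kb. The right end of I was exceeded by 2 internal windows, of which the highest had 38.6%, and the other ends by none. With words of 100 bases the right end of II, at 37.0%, was exceeded by 1 internal window, at 37.3%. A short read placed in words that occur more than once has more than 1 equally good origin. The authors' treatment of such reads in the alignment is not stated in the labels.

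**Figure D3:**
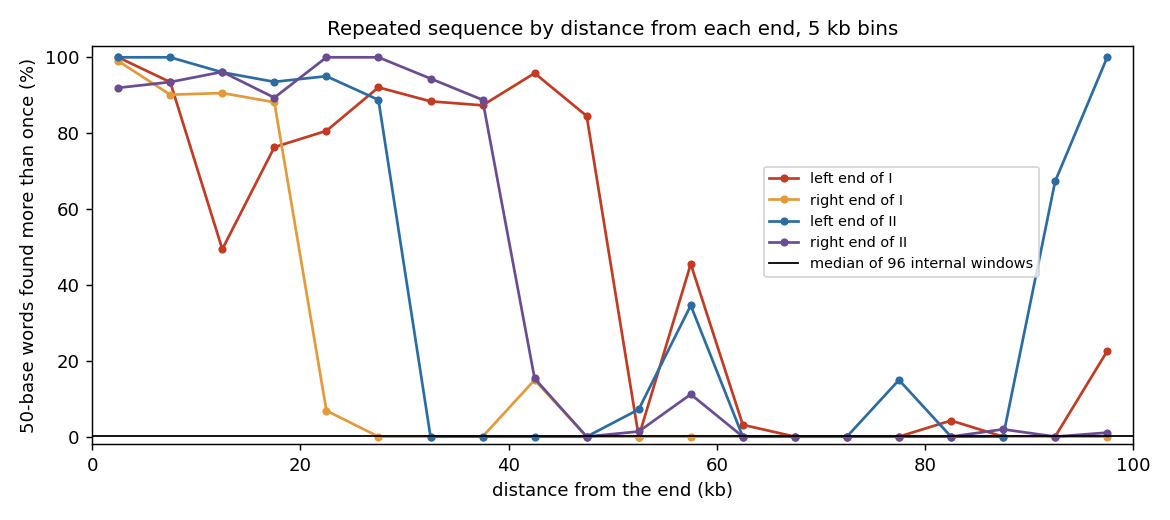
Share of 50-base words that occur more than once in the nuclear reference, in 5 kb bins of distance from each end, with the median of the 96 internal windows as a black line. The share was 100% in the outermost bin of the left ends of I and II, and dropped to near the internal median from 50 kb on the left of I, 25 kb on the right of I, 30 kb on the left of II and 45 kb on the right of II, with later peaks that include the exporter and asparaginase genes and the tandem transporter repeat of the left end of II.

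The innermost and highest of the later peaks on the left end of II was a tandem repeat. The transporter genes SPBPB10D8.04c, SPBPB10D8.05c and SPBPB10D8.06c, and SPBPB10D8.07c just outside the 100 kb limit, fell on 4 identical repeats of 2759 bases that run from chrII:91637 to 102672. The coding sequences of these 4 genes were identical, for a protein of 379 residues. Their deposited intervals nevertheless measured 1489, 1258, 1294 and 1553 bases. That of SPBPB10D8.04c starts at chrII:91375, before the first repeat. The same was seen between ends: of 9 pairs of genes with the same coding sequence on 2 ends, 6 had unequal deposited lengths, as in ftm2 with 980 bases against ftm3 with 442, and SPBC1348.01 with 1607 against SPBCPT2R1.01c with 1025.

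Copies were not always listed. A DNA copy at another end, at 90% identity or more over at least 80% of the gene, was found for 66 of the 179 matched members. This gave 129 matches, counted from each member. A pair of listed genes can thus count from both sides, and several members can match the same site. At 18 of the matches, made by 13 members, no feature was listed on the strand of the copy. In 7 matches, again counted from each member, a pseudogene at one end matched a coding gene at the other. The methyltransferase SPBC1348.04 of the left end of II, for example, had a copy on the right end of II over all 575 of its bases with no difference. No coding feature is listed there, and the 575 bases lie inside the non-coding RNA SPNCRNA.448, which is read in the opposite direction. SPAC750.08c, described as a malic enzyme and the outermost feature of the right end of I, was present in full over 687 bases, with no change, inside the pseudogenes SPAC212.09c on the left end of I and SPBCPT2R1.07c on the right end of II. Of 8 such matches of non-coding RNAs between ends, 5 had no feature on the strand of the copy. These were copies of SPNCRNA.70, SPNCRNA.448 and SPNCRNA.11, and features on the opposite strand were not counted here.

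Pseudogenes made up 13 of 136 matched features with systematic gene names at the ends (9.56%, interval 5.67% to 15.7%), against 6 of 4071 (0.147%, 0.0676% to 0.321%) in the rest. They were 5 on the left end of I, 0 on the right end of I, and 4 on each end of II, and SPAC212.10 and SPBCPT2R1.10 stood next to tlh1 and tlh2.

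By product description, the 123 coding genes at the ends held many proteins of the cell surface and of small-molecule metabolism. Transporters and permeases numbered 22 (17.9%, interval 12.1% to 25.6%), against 145 of 4065 (3.57%) in the rest. They move hexoses or gluconate (ght7, ght3), siderophore iron (str3), sulfate (sul2), phosphate (pho84), proline (put4) and basic amino acids (cat1). Hydrolases numbered 14 (11.4%) at the ends against 93 (2.288%) in the rest, dehydrogenases and reductases 10 (8.13%) against 127 (3.12%), and cell surface glycoproteins 5 (4.07%) against 11 (0.271%). The transmembrane helix group had 8 genes at the ends and 0 of 4065 in the rest. It consists of the ftm families described above, so this count is no separate result. Transcription factors were 2 at the ends (1.63%) against 94 in the rest (2.31%), and phosphatases 2 (1.63%) against 87 (2.14%), both within the interval of the ends. A description of uncharacterized applied to 28 (22.8%) against 264 (6.49%), and a gene symbol was given to 49 (39.8%) against 3460 (85.1%). Copies raise these counts, since family members are not independent: the transporters include fex1 with fex2, 3 members of the tandem repeat and the 3-end family.

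The 4 ends also differed among themselves. The right end of I held 6 of the 10 dehydrogenases and reductases, among them SPAC186.02c and SPAC186.07c, 71.7% identical hydroxyacid dehydrogenases. The left end of II held 8 of the 22 transporters and both transcription factors, grt1 and SPBC1348.12. The right end of II held the galactose genes gal1, gal7 and gal10, which encode the kinase, the uridylyltransferase and the epimerase of galactose use, starting 42628 (gal1), 45330 (gal10) and 49100 (gal7) bases from the edge, and further in the phosphate genes pho1 and pho84, an acid phosphatase and a phosphate transporter. The left end of I held both iron-related genes shu1, for heme uptake, and str3, starting 85564 and 88199 bases from the edge, and its innermost member isp3 encodes a spore coat protein.

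By name prefix, 138 of the 189 end features (73.0%, interval 66.3% to 78.8%) had systematic gene names, which cover coding genes and pseudogenes, against 4082 of 5492 (74.3%) in the rest. Non-coding RNAs numbered 51 (27.0%, 21.2% to 33.7%) against 1200 (21.9%, 20.8% to 22.96%), which overlap. By end they were 15, 14, 11 and 11 for the left and right of I and the left and right of II. Their share followed distance, with 11 of 85 features (12.9%, 7.38% to 21.7%) in the outer 50 kb and 40 of 104 (38.5%, 29.7% to 48.1%) in the inner 50 kb. With ends of 50 kb the direction turned, at 13.3% against 22.2% in the rest. With ends of 200 kb the share was 29.5% against 21.4%. With RefSeq in place of the deposited list it was 63.2% against 56.5%. The outermost non-coding RNA lay 11.03 kb from the edge on the left of I, 32.5 kb on the right of I, 21.0 kb on the left of II and 31.6 kb on the right of II. No tRNA, rRNA, snoRNA or snRNA feature was listed at the ends, against 208 in the rest, and 21 of the 96 internal windows (21.9%) also held none.

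Density was 53, 47, 46 and 43 features per 100 kb on the left and right of I and the left and right of II, against a median of 56 in the internal windows, whose range was 44 to 72. The right end of II was below all 96 windows, the left of II above 1 of them, the right of I above 3 and the left of I above 21. Over all ends the density was 47.2 per 100 kb, against 56.5 in the rest. The nearest features on both sides of the limit were isp3 (reaching 96966 bases from the edge) and SPNCRNA.607 (101140) on the left of I, SPAC922.04 (99282) and SPNCRNA.277 (100733) on the right of I, SPBPB10D8.06c (98534) and SPBPB10D8.07c (101411) on the left of II, and SPNCRNA.1692 (99748) and SPBC8E4.04 (100654) on the right of II.

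Systematically named features were short, with medians of 993.5, 1295, 1364 and 1437.5 bases on the left and right of I and the left and right of II, against 1490 to 2415 bases in the internal windows. All 4 ends lay below all 96 windows. Over all ends the median was 1278 bases (quartiles 735.5 and 1718.5), against 1896 bases (1300 and 2705) in the rest. The longest were tlh2 with 6016 bases and tlh1 with 5662 bases on the right of II and left of I, SPBPB8B6.04c (grt1, a transcription factor) with 3853 bases on the left of II, and the transporter SPAC922.05c with 3574 bases on the right of I. Proteins differed less, with a median of 317 residues against 384 in the rest, and only the left end of I, with 262.5 residues, lay below all windows, whose lowest was 288. Non-coding RNAs had a median of 745 bases at the ends and 1052 bases in the rest.

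**Figure D4:**
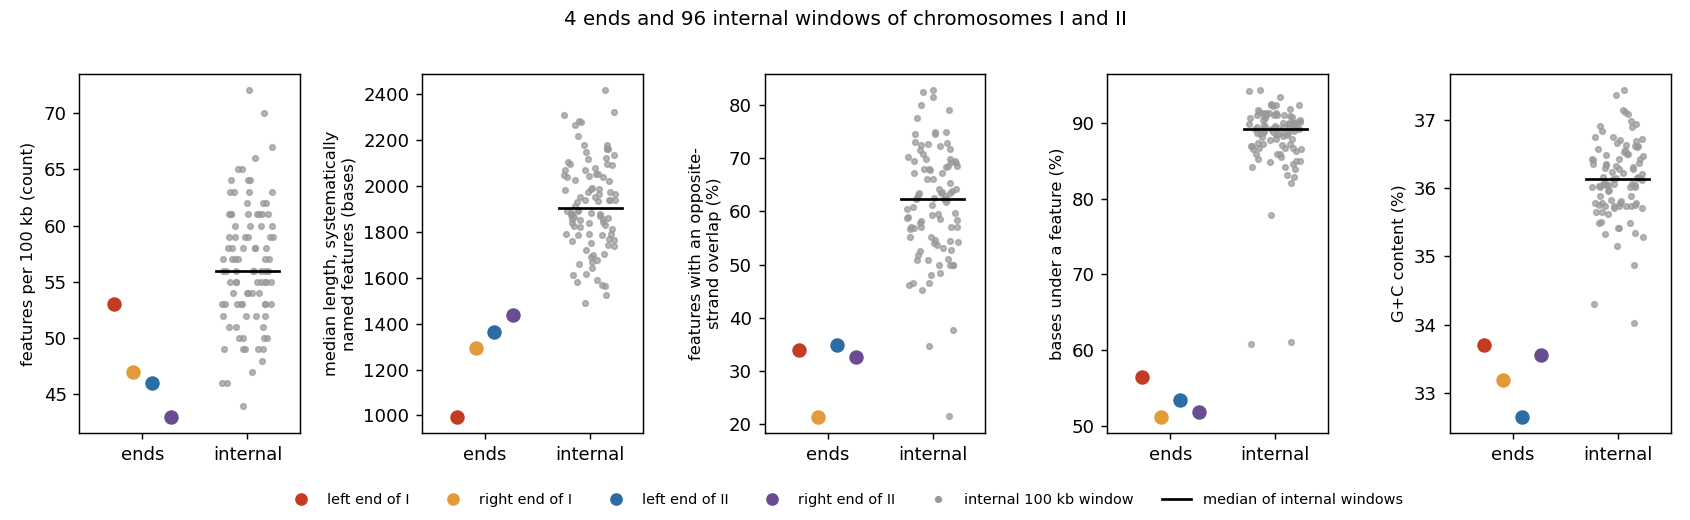
Feature count, median length of systematically named features, share of features with an opposite-strand overlap, share of bases under a feature and G+C content of the 4 ends (coloured points) and the 96 internal windows of 100 kb (grey points, with their median as a line). In length, coverage and G+C content all 4 ends lie below every window.

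Features covered 56.4% of the left end of I, 51.1% of the right end of I, 53.4% of the left end of II and 51.8% of the right end of II, against 60.8% to 94.3% in the internal windows, whose median was 89.2%. The longest stretch without a feature was 3297, 5388, 4529 and 4391 bases on these ends, against a median of 1427.5 and a maximum of 8838 bases in the windows. G+C content was 33.7%, 33.2%, 32.6% and 33.5%, below the 34.0% to 37.4% of the windows. Introns were present in 22 of 123 coding genes at the ends (17.9%, 12.1% to 25.6%) and 1950 of 4065 (48.0%) in the rest. By end they were 7 of 32, 2 of 33, 8 of 31 and 5 of 27.

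Direction showed no difference beyond the intervals. The plus strand held 54.5% of end features (47.4% to 61.4%), against 51.4% in the rest, and 48.7% (41.6% to 55.8%) were read toward the nearer chromosome end, against 49.9%. The 4 ends had 45.3%, 55.3%, 43.5% and 51.2% read toward the end, inside the 32.7% to 61.5% of the internal windows. With ends of 50 kb the share read toward the end was 39.8%, against 49.96% in the rest.

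Overlap with a feature on the opposite strand, by at least 1 base, was found for 18 of 53, 10 of 47, 16 of 46 and 14 of 43 features on the left and right of I and the left and right of II. These shares of 34.0%, 21.3%, 34.8% and 32.6% compare with a median of 62.3% in the internal windows, of which 0 to 2 lay below each end. Over all ends the share was 30.7% (24.6% to 37.6%), against 61.6% (60.3% to 62.9%) in the rest. The gap was present for systematically named features, 22.5% against 59.8%, and for non-coding RNAs, 52.9% against 77.3%. In the outer 50 kb the share was 20%, and in the inner 50 kb it was 39.4%.

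There were 34 overlapping pairs at the ends. A non-coding RNA met a systematically named feature in 16, both were systematically named in 10, and both were non-coding RNAs in 8. They were head to head in 17, tail to tail in 9 and nested in 8. On the right end of II the longest overlap, of 3292 bases, joined gal10 (SPBPB2B2.12c) and the sugar dehydratase tgd1 (SPBPB2B2.11), tail to tail. On the right end of I the proline transporter put4 (SPAC869.10c) and SPNCRNA.1091 shared 1900 bases. On the left end of II SPNCRNA.1307 lay with all its 1731 bases inside the arylsulfatase gene SPBPB10D8.02c, and the acetamidase fah1 shared 1704 bases with grt1. On the left end of I the hydrolase gene hhy1 (SPAC1F8.04c) lay with its 1546 bases inside SPNCRNA.605. Of the 9 pairs of coding genes that could be checked, 6 also overlapped in RefSeq and none shared coding bases.

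Much of the difference in overlap lay outside the coding sequences. The deposited intervals of coding genes exceeded the coding span in RefSeq by a median of 265 bases at the ends (quartiles 29 and 464), against 467 bases (275 and 790) in the rest, and 30 of 123 (24.4%, 17.7% to 32.7%) exceeded it by at most 1 base, against 4.50% in the rest. When coding genes were cut to their coding span, overlap was 22.2% at the ends and 27.0% in the rest, and the ends, at 24.5%, 17.0%, 26.1% and 20.9%, lay inside the 7.55% to 48.4% of the internal windows. Covered bases stayed apart, with 46.2%, 42.1%, 43.8% and 44.9% at the ends, all below the 48.6% to 80.8% of the windows. Whether untranslated parts are shorter at the ends or only less completely annotated was not tested.

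**Figure D5:**
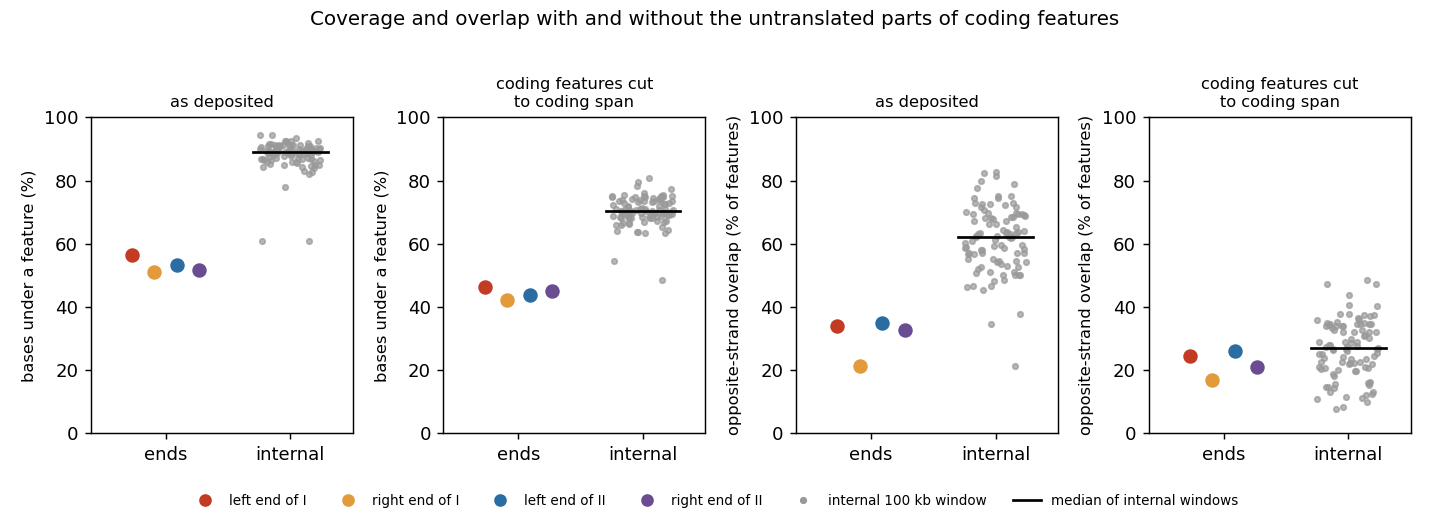
Share of bases under a feature and share of features with an opposite-strand overlap, with intervals as deposited and with coding genes cut to their coding span, for the 4 ends (coloured) and the 96 internal windows (grey, median as a line). With coding spans the overlap shares of the ends, 17.0% to 26.1%, fall among the windows, and the covered shares do not.

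The RefSeq annotation lists more non-coding RNAs in both regions. Of its 362 genes at the ends, 183 (50.6%) are not in the deposited list, all of them long non-coding RNAs, against 45.4% in the rest. With RefSeq in place of the deposited list, overlap was 73.6% at the ends against 90.1% in the rest. In that run the limits of the right ends were set from the highest RefSeq gene ends, and the ends held 367 features.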

How the data were processed

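The deposited annotation of the modified genome is a BED list with a position, name, strand and score per feature; how its intervals were made is not stated in the labels, and the deposited score is 0 throughout and was not used. Alignment used Bowtie2 and build ASM294v2, per the submitters' processing notes; its version and the read length remain not given in the sources used here. Library signals and the sequence of the modified genome were not analysed here.

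Sequence, coding spans and products came from RefSeq ASM294v3. Chromosome I has the same length there (5579133 bases) as the highest deposited end. Chromosome II was compared by matched features, which are shifted by 1842 bases past the insert; its highest deposited end lies 6905 bases short of its length, and distances are measured from that end. RefSeq sequences are given in ASM294v3 coordinates, also past the insert.

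Proteins were compared with BLAST+ 2.17.0 (E-value at most 1e-20), DNA with its megablast, and coding sequences with Biopython 1.88, under Python 3.11.15. Counting steps were tested on simulated data. Intervals are 95% Wilson intervals; they treat features as independent, which neighbours and copies are not, and cover counting only. Internal windows are 96 consecutive stretches of 100 kb, with features placed by midpoint. They were laid from the left limit, and the last ended at base 5400000 on I and 4400000 on II. The stretches between these bases and the right ends, which start at 5479134 and 4434742, are in no window. Alternatives were ends of 50 or 200 kb, features crossing the limit, the full length of II, RefSeq in place of the deposited list, 1 feature per name, leaving out each end, and other overlap and identity minimums. Coding spans and words of 36 or 100 bases were added after seeing the data.

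Genes were named by rule: per end the 3 outermost and the longest feature, the features at the limit, tlh1 and tlh2, families on 3 or more ends, 6 pairs of highest identity and the largest opposite overlaps, at most 40; this rule gives 55, and names beyond the 40 or outside it were chosen after their values were seen. Members and lists were chosen with earlier results of these data known.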

Additional observations from a re-analysis of the deposited data

How the results depend on the processing

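No paired analysis was possible because neither deposited file carries values of single libraries. Under 69 alternatives to 9 results, 55 values remained inside the interval of a share, inside 1 SD over the ends or inside 1.5 times a count or density, and 14 moved; the cause was not tested unless stated. The limit of 1.5 times is wider than the difference in density between ends and rest, 47.2 against 56.5 per 100 kb. It therefore cannot show whether that difference narrowed. With ends of 200 kb the density was 53.4 against 56.4 in the rest, and counted as unmoved. With ends of 50 kb the non-coding share was 13.3%, against 22.2% in the rest. The median length of systematically named features was 1031.5 against 1888.5 bases. The share read toward the end was 39.8% against 49.96%, and the overlap share 18.1% against 61.2%. With 200 kb the length was 1582.5 against 1897.5 bases, and the overlap share 51.1% against 61.4%. RefSeq, which lists more non-coding RNAs, gave a density of 91.8 per 100 kb, against 101.6 in the rest. Its non-coding share was 63.2% against 56.5%, and its overlap share 73.6% against 90.1%. Requiring overlap of 50% of the feature gave 20.6% against 31.0% in the rest, and coding partners only 18.5% against 47.4%. Cutting to coding spans gave an overlap share of 22.2% against 27.0% in the rest, and a length of 944.5 against 1233 bases. Covered bases came to 44.2% against 70.4%. Without 1 end at a time, density ran from 45.3 to 48.7, the non-coding share from 26.1% to 28.0%, length from 1212 to 1364 bases, the share read toward the end from 46.5% to 50.3%, overlap from 29.4% to 33.8% and introns from 15.2% to 22.2%. Proteins shared between ends numbered 39 to 53 over 5 alternatives, against 47. The number of ends, 4, and the missing library values limit what can be said.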
